A study of Mus musculus with 18 samples.

Results

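The interleukin-1 (IL-1) family was described here through 8 mouse genes chosen by name, out of the 54752 genes in the count table: the ligands Il1a, Il1b, Il18 and Il33, the antagonist Il1rn, and the receptor genes Il1r1, Il1rap and Il1rl1. Each was found as 1 row of the table. RNA was sequenced from 18 mouse samples in 6 groups of 3. Of these groups, 4 were cultures of the ovarian cancer cell lines HM-1 (strain label B6C3F1, grown in MEM alpha) and ID8 (strain label C57BL6, grown in RPMI 1640), each as control cells and as cells labelled Cd276KO. The remaining 2 were HM-1 control and HM-1 Cd276KO tumors, grown from cells injected into the skin of B6C3F1 mice and taken at day 10. Cd276 encodes the immune checkpoint molecule B7-H3, and the series compared cells labelled as its knockout with controls. The labels call the samples of a group biological replicates without saying that they came from separate cultures or mice, so the spread behind each p-value is that between these samples and may be technical. The sources used here do not give how Cd276 was altered, what the control cells carry, whether each line is 1 clone, or the age and sex of the mice.

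Il1a and Il1b encode IL-1 alpha and IL-1 beta, which both bind the receptor IL-1R1 (Il1r1). Binding brings in the accessory chain IL-1RAP (Il1rap), and the pair signals through MYD88 and the IRAK kinases to NF-kB. The antagonist IL-1RA (Il1rn) occupies IL-1R1 without recruiting the accessory chain and so blocks both ligands. IL-33 binds ST2 (Il1rl1), which shares the accessory chain, and IL-18 uses a receptor pair of its own. IL-1 beta and IL-18 are made as precursors that caspase-1 cuts in inflammasomes, and IL-1 beta is known mainly as a product of activated myeloid cells, which RNA levels alone do not show to be secreted.

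The genes lie on several chromosomes of GRCm38, and all are protein coding in GENCODE M21. Both ligand genes are on the minus strand of chromosome 2, Il1a (ENSMUSG00000027399.1) at chr2:129299610-129309972 and Il1b (ENSMUSG00000027398.13) at chr2:129364570-129371139. Il1rn (ENSMUSG00000026981.15) is on the plus strand of the same chromosome at chr2:24336853-24351494. Il1r1 (ENSMUSG00000026072.12) at chr1:40225080-40317257 and Il1rl1 (ENSMUSG00000026069.15) at chr1:40429570-40465415 share chromosome 1. Il1rap (ENSMUSG00000022514.14) is at chr16:26581704-26730117, Il18 (ENSMUSG00000039217.13) at chr9:50554827-50581840 and Il33 (ENSMUSG00000024810.16) at chr19:29925114-29960718. Exons of Gm14023, Il1bos and Gm20319 overlap exons of Il1a, Il1b and Il1rap on the other strand. The strand setting of the counting is not given in the sources used here, and reads of such pairs cannot be told apart without it. Gm14023 had 2 to 16 counts in a library, Il1bos at most 13 and Gm20319 at most 1.

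The promoters of the 2 IL-1 ligands and of the antagonist are shown because the RNA ratio of these 3 genes in tumors is given below. Each window is the 150 bases before a RefSeq transcription start in GRCm38.p6, written 5′ to 3′ on the gene's own strand. The windows shown are Il1a at chr2:129309973-129310122 and Il1b at chr2:129371140-129371289, both minus strand, and 2 of the 3 RefSeq starts of Il1rn on the plus strand, at chr2:24336710-24336859 and chr2:24345141-24345290. The window of the third start overlaps the second and is not shown. The antagonist is known in intracellular and secreted forms from different starts, which counts per gene do not separate. Capitals mark the TATA box TATAAA and the AP-1 element TGANTCA, and matches to the NF-kB consensus would also be in capitals. All were searched on both strands, and no match overlapped another.
Il1a: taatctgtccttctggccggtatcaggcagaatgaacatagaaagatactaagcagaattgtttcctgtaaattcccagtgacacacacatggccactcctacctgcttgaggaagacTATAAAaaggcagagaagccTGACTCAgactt
Il1b: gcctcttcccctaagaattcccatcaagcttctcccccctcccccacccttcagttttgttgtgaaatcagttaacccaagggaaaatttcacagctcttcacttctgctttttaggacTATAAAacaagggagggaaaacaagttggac
Il1rn, upstream start: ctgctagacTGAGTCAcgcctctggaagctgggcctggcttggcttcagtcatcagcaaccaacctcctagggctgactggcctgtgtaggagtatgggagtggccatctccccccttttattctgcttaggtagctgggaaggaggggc
Il1rn, downstream start: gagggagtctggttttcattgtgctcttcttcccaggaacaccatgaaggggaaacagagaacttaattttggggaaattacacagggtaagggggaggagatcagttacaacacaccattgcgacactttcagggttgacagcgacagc

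Both ligand promoters held a TATA box, at -32 to -27 from the start in Il1a and at -31 to -26 in Il1b, a motif in 7.57% of all 32851 RefSeq windows of this length. The AP-1 element was at -12 to -6 in Il1a and at -141 to -135 in the upstream window of Il1rn, against 4.24% of all windows. Of the other member windows, only the second of Il33 held any of these motifs, a TATA box. The NF-kB consensus, found in 4.6% of all windows, had no match in the 13 member windows. These matches describe the letters and show no binding.

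Library totals ran from 17349082 to 30959773 counts, and levels below are counts per 1000000 of the library total (CPM). Cd276 averaged 86.41 ± 10.6 CPM (SD, n = 3) in HM-1 control cultures and 46.56 ± 1.53 (n = 3) in the Cd276KO cultures. In ID8 cultures it was 20.93 ± 0.299 in controls and 19.37 ± 1.45 in the libraries labelled Cd276KO, and in tumors 121.7 ± 18.1 and 86.61 ± 12.3 (n = 3 each). Tests were edgeR's quasi-likelihood test with Benjamini-Hochberg adjustment over all genes tested, and genes were called at an adjusted p under 0.05. Cd276 was called lower in HM-1 cultures alone (log2 fold change -0.85, adjusted p = 0.00146). It was not called in ID8 cultures (adjusted p = 0.692) or in tumors (log2 fold change -0.45, adjusted p = 0.105). The tumor groups did not overlap in Cd276, and the ID8 groups did. Directions in ID8 cultures and in tumors below therefore go by labels for which the Cd276 level passed no test. There were 2 libraries that stood apart from the rest of their group: HM-1 control culture 1, whose chi-square per gene against the other 2 was 64.9 and 63.9 where those differed by 1.57, and control tumor 3. Control tumor 3 had a summed level of 8 keratinocyte markers of 239 CPM, against 7.195 to 8.185 in the other 5 tumors, and a summed level of 7 fibroblast markers of 530.1 CPM, against 3698 to 17930. The 6 epithelial markers fixed for the cancer cells summed to 1876 CPM or more in every library, although Epcam was at 0 in HM-1 cultures.

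The cultures expressed the antagonist far above the ligands, and the tumors expressed both. Per kilobase of exon, Il1rn averaged 225.1 ± 1.48 CPM in HM-1 control cultures (n = 3), which ranked 186 among 21921 protein-coding genes, and 564.7 ± 23.4 in HM-1 Cd276KO cultures, rank 58. In ID8 cultures the per-kilobase level was 55.55 ± 1.32 in controls and 37.07 ± 1.12 in the Cd276KO group (n = 3 each). Il1a had 1 to 4 counts per culture library, apart from 1 ID8 Cd276KO library with 0. Il1b had 0 counts in 11 of the 12 culture libraries and 1 count in HM-1 Cd276KO culture 3. Zero counts over the 3 HM-1 control libraries allow a level of up to 0.045 CPM, a limit of 3 counts that covers counting error only.

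**Figure D1:**
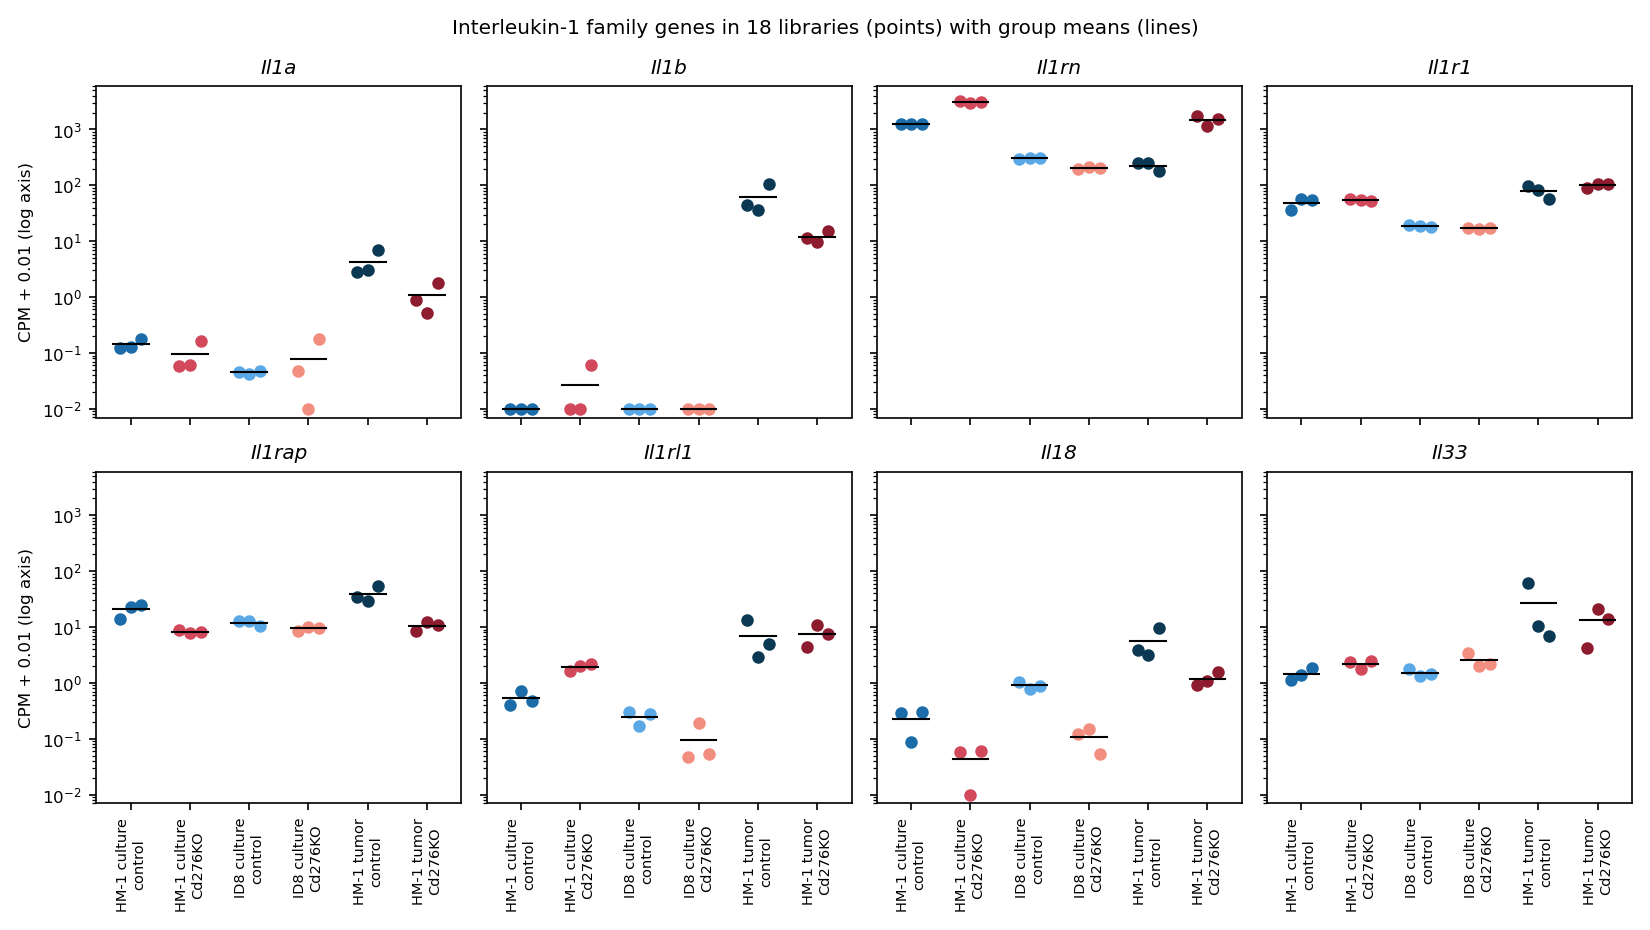
Level of each gene in the 18 libraries, as CPM plus a small constant on a log axis (points, 1 per library), with the mean of each group as a line. Il1b is at or near 0 in all cultures and between 9.835 and 106.5 CPM in tumors, and Il1rn is at 181.8 CPM or more in every library.

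Of the ligands, Il1b alone was called between the tumor groups by the main edgeR fit. Il18 was also called with DESeq2, in 1 fit over all 18 libraries, with voom and with no filter on low counts. Il1a was also called with DESeq2 and in the fit over 18 libraries. Control tumors 1, 2 and 3 had 44.35, 36.76 and 106.5 CPM of Il1b, and Cd276KO tumors had 11.24, 9.835 and 15.27 CPM. The groups did not overlap, and control tumor 3 was the highest. Il1b fell in Cd276KO tumors (log2 fold change -2.36, SE 0.46, adjusted p = 0.0405 by edgeR). Without control tumor 3 the log2 difference was -1.67 with an adjusted p of 0.00647.

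Il1a, the ligand that epithelial cells and keratinocytes also make, was scarcer. Its levels were 2.792, 3.048 and 6.882 CPM in control tumors and 0.8902, 0.5109 and 1.787 CPM in Cd276KO tumors, again with control tumor 3 highest and no overlap. The difference was not called (log2 fold change -1.99, SE 0.61, adjusted p = 0.105 by edgeR). For Il18, which shares the caspase-1 processing of IL-1 beta, control tumors had 3.925, 3.189 and 9.645 CPM and Cd276KO tumors 0.8902, 1.064 and 1.556. The groups did not overlap but the edgeR test missed the threshold (log2 fold change -2.24, SE 0.54, adjusted p = 0.0623), and without control tumor 3 it passed (log2 fold change -1.53, adjusted p = 0.034). Il33, an alarmin of stromal and epithelial nuclei, gave 62.48, 10.5 and 6.829 CPM in control tumors and 4.284, 21.16 and 13.89 CPM in Cd276KO tumors. These values overlapped, control tumor 1 held the highest, and no difference was called (log2 fold change -0.97, SE 0.90, adjusted p = 0.547).

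In the cultures only 2 ligands had enough counts to be tested. Il18 was 1.02, 0.7752 and 0.8737 CPM in ID8 control cultures and 0.112, 0.1424 and 0.04237 CPM in ID8 Cd276KO cultures. It fell (log2 fold change -2.99, SE 0.45, adjusted p = 4.51e-06 by edgeR), though from sums of 75 and 8 counts. HM-1 cultures held 14 Il18 counts in controls and 2 in Cd276KO libraries, which is a 6.287-fold ratio (95% interval 1.44 to 57.0 from counting error only) with no test across replicates. Il33 rose in ID8 Cd276KO cultures, from 1.784, 1.324 and 1.405 CPM to 3.361, 2.029 and 2.161 CPM (log2 fold change 0.82, SE 0.22, adjusted p = 0.00286), a call lost in 1 fit over all 18 libraries (adjusted p = 0.422). HM-1 cultures had 1.134, 1.38 and 1.859 CPM of Il33 in controls and 2.339, 1.793 and 2.423 CPM in Cd276KO cells, groups that overlapped and did not pass (log2 fold change 0.61, adjusted p = 0.0882).

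The antagonist gene differed between Cd276KO and control in all 3 settings, and the direction was not the same in all of them. HM-1 control cultures had 1241, 1255 and 1241 CPM of Il1rn and HM-1 Cd276KO cultures 3240, 2985 and 3152 CPM. The groups did not overlap, and Il1rn rose 2.58-fold (log2 fold change 1.37, SE 0.08, adjusted p = 7.06e-05 by edgeR). ID8 went the other way, with 299.2, 312.8 and 310.5 CPM in controls and 198.1, 209.6 and 207.9 CPM in Cd276KO cultures. There Il1rn fell (log2 fold change -0.51, SE 0.06, adjusted p = 4.16e-08). The test of the difference between the 2 cell lines' effects gave -1.89 on the log2 scale, ID8 minus HM-1 (SE 0.09, adjusted p = 7.24e-09 by edgeR).

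In tumors Il1rn was 246.6, 250.7 and 181.8 CPM in controls and 1778, 1150 and 1553 CPM in the Cd276KO group. Every Cd276KO tumor was above every control tumor, and the rise was 6.84-fold (log2 fold change 2.77, SE 0.23, adjusted p = 0.0146 by edgeR). This effect was larger than the one in HM-1 cultures by 1.39 on the log2 scale (SE 0.24, adjusted p = 0.00954 for the interaction). Of the 8 genes tested for this difference between tumors and cultures, Il1rn alone was called, against 2.84% of all genes, though Il1a, Il1b and Il18 were too scarce in HM-1 cultures to be tested there. For ID8 minus HM-1 cultures, 3 of the 6 tested were called, against 40.4% of all genes: Il1rn, Il1rap and Il1rl1. Il1rl1 was too scarce in ID8 cultures to be tested within that line, and no difference between the lines is read from it.

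**Figure D2:**
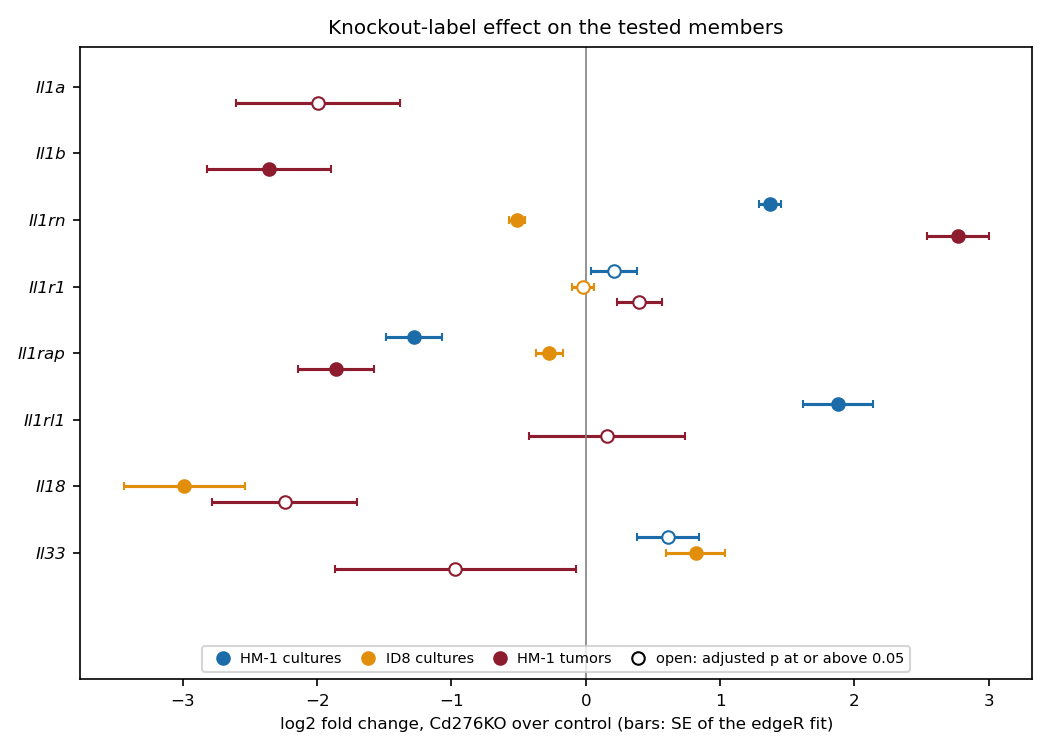
Log2 fold change of each tested gene in Cd276KO over control (points) with the SE of the edgeR fit (bars), in HM-1 cultures, ID8 cultures and HM-1 tumors. Filled points passed an adjusted p of 0.05, and Il1rn is at 1.37, -0.51 and 2.77 in these 3 settings.

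Set against the ligands on the same per-kilobase scale, Il1rn was 1.806, 2.175 and 0.5539 times the sum of Il1a and Il1b in control tumors and 50.63, 38.36 and 31.47 times that sum in Cd276KO tumors. The means were 1.51 ± 0.85 and 40.2 ± 9.71 (SD, n = 3 each), and every Cd276KO tumor was above every control tumor. The level of this ratio depends on the exon lengths used, unions over all transcripts. These were 5535 bases for Il1rn, 1974 for Il1a and 1907 for Il1b. The ratio compares bulk RNA, which may come from different cells, and does not measure protein. The log2 ratio differed by 4.93 (two-sided exact permutation p = 0.1, the smallest that 3 against 3 allows), and by 4.31 without control tumor 3. In cultures the same ratio rested on 0 to 4 ligand counts per library and is not interpreted.

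The 3 receptor genes showed 3 different patterns. Il1r1, the chain that binds IL-1, was 35.73, 55.81 and 54.75 CPM in HM-1 control cultures and 58.06, 54.81 and 51.51 CPM in HM-1 Cd276KO cultures. ID8 controls had 19.26, 18.51 and 17.63 CPM and the ID8 Cd276KO group 17.55, 16.7 and 17.58. Tumors had 97.53, 83.38 and 57.14 CPM in controls and 90.58, 107.9 and 106 in the Cd276KO group. Il1r1 was called in none of the 3 Cd276KO comparisons, with log2 fold changes of 0.21, -0.02 and 0.40 and adjusted p of 0.378, 0.836 and 0.213 by edgeR. With voom it was called in tumors.

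Il1rap, the accessory chain for IL-1 and IL-33, fell in all 3 comparisons. HM-1 control cultures had 14.01, 23.03 and 24.8 CPM, and HM-1 Cd276KO cultures 8.88, 7.837 and 8.095. The low control value belonged to the library that stood apart, and with or without it the groups did not overlap (log2 fold change -1.28, SE 0.21, adjusted p = 0.0054; -1.48 without it). In tumors Il1rap was 34.68, 29.21 and 53.49 CPM in controls and 8.569, 12.09 and 11.07 CPM in the Cd276KO group (log2 fold change -1.86, SE 0.28, adjusted p = 0.026). The ID8 values were close, 12.89, 12.66 and 10.37 CPM in controls against 8.626, 9.826 and 9.787, and the fall was small (log2 fold change -0.27, SE 0.10, adjusted p = 0.0274). That ID8 call was lost when control library 1, control library 2 or Cd276KO library 1 was left out (adjusted p up to 0.133), with DESeq2 (0.0577) and in 1 fit over all 18 libraries (0.435). The Il1rap effect differed between the cell lines by 1.00, ID8 minus HM-1 (SE 0.24, adjusted p = 0.00533).

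Per kilobase of exon, Il1rap was below Il1r1 in all 18 libraries. The ratio of Il1rap to Il1r1 was 0.22, 0.231 and 0.254 in HM-1 control cultures and 0.0857, 0.0801 and 0.088 in HM-1 Cd276KO cultures. Control tumors had 0.199, 0.196 and 0.524, of which the last was control tumor 3, and Cd276KO tumors 0.053, 0.0628 and 0.0585. In ID8 cultures the ratio was 0.375, 0.383 and 0.33 in controls and 0.275, 0.33 and 0.312 in the Cd276KO group. The HM-1 groups did not overlap in culture or in tumors, and the ID8 groups met at 0.33. The exon length used is the union over all transcripts, which for Il1rap includes soluble and membrane forms.

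Il1rl1, the IL-33 receptor, was scarce in cultures. HM-1 control cultures had 0.397, 0.7099 and 0.4647 CPM and HM-1 Cd276KO cultures 1.623, 1.998 and 2.166, a rise without overlap (log2 fold change 1.88, SE 0.26, adjusted p = 0.00292 by edgeR). ID8 cultures had 20 Il1rl1 counts in controls and 7 in the Cd276KO group, too few for a test within ID8. In tumors Il1rl1 was 13.11, 2.86 and 5.005 CPM in controls and 4.451, 11.03 and 7.378 CPM in the Cd276KO group, which overlapped (log2 fold change 0.16, SE 0.58, adjusted p = 0.892).

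Counted together, 3 of the 5 genes tested in HM-1 cultures were called, 2 higher and 1 lower, where 27.7% of all genes were called, 11.6% higher and 16.1% lower. In ID8 cultures 4 of 5 were called, 1 higher and 3 lower, beside 60.7% of all genes, 29.4% higher and 31.3% lower. In tumors 3 of 8 were called, 1 higher and 2 lower, beside 5.38% of all genes, 2.2% higher and 3.18% lower. The genes not tested in cultures (Il1a, Il1b and Il18 in HM-1, and Il1a, Il1b and Il1rl1 in ID8) had too few counts for the filter. The median log2 fold change of the tested genes was 0.61 in HM-1 cultures, -0.27 in ID8 cultures and -1.42 in tumors, beside -0.01, -0.01 and -0.03 over all genes.

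The tumor calls of Il1rn, Il1b and Il1rap depended on all 3 Cd276KO tumors. Without Cd276KO tumor 1, 2 or 3, their directions stayed and their adjusted p became 0.0682, 0.075 and 0.137 for Il1rn, 0.157, 0.139 and 0.172 for Il1b, and 0.114, 0.0888 and 0.154 for Il1rap by edgeR, and 1, 0 and 0 genes of the whole table were called. Il1b also lost its call without control tumor 1 (adjusted p = 0.0548) or 2 (0.0523), and with no filter on low counts (0.1).

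Summed leukocyte markers were lower in Cd276KO tumors, although few of them passed the test singly. A bulk library cannot tell fewer cells of a type from less RNA per cell. The 4 general leukocyte markers summed to 322.1, 209.5 and 200.8 CPM in control tumors and 98.48, 171.1 and 153.1 CPM in Cd276KO tumors, with Tyrobp called lower (log2 fold change -1.01, adjusted p = 0.04) among 4 tested. The 11 macrophage markers summed to 1338 to 2193 CPM in controls and 701.7 to 1223 CPM in the Cd276KO group. Among them 1 of 11 was called, Cd68 (log2 fold change -0.83, adjusted p = 0.038). Lyz2 was the largest part of that sum. With Lyz2 left out, the sums were 1170, 831.8 and 698.6 CPM against 475.9, 761.1 and 649 CPM, which overlapped. The 9 neutrophil markers summed to 399.5, 703.1 and 1181 CPM in controls and 128.1, 146.8 and 164.4 CPM in the Cd276KO group. Most of that sum was Mmp9, a protease that is not particular to neutrophils. Without it the sums were 31.2, 33.15 and 117.6 CPM against 13.35, 8.941 and 13.43 CPM. Of the 7 neutrophil markers tested, Mmp9 (log2 fold change -2.36, adjusted p = 0.0312) and Csf3r (-1.88, 0.0498) were called lower, and the granule genes Camp and Ngp were at 0 in Cd276KO tumors and at or below 0.08094 CPM in controls. Cd14 of the macrophage list (0.33, adjusted p = 0.412) and Ly6g of the neutrophil list (0.47, adjusted p = 0.461) had values in the other direction. No leukocyte, macrophage or neutrophil marker was called when any Cd276KO tumor or control tumor 2 was left out. Without control tumor 1 only 1 neutrophil marker was called among these lists. Without control tumor 3, 1 leukocyte, 2 macrophage and 3 neutrophil markers were called lower. No marker was called among 7 mast cell and 6 dendritic cell genes, whose median log2 fold changes were 0.33 and 0.02, or among 7 T and NK cell genes (-0.92). In cultures the 4 leukocyte markers summed to at most 0.5252 CPM and the 11 macrophage markers to between 5.625 and 127.7 CPM. Their part in the Il1b, Il1a and Il18 values of the tumors, and in the tumor values of the listed genes below, was not tested. Nor was that of the keratinocyte genes in control tumor 3.

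**Figure D3:**
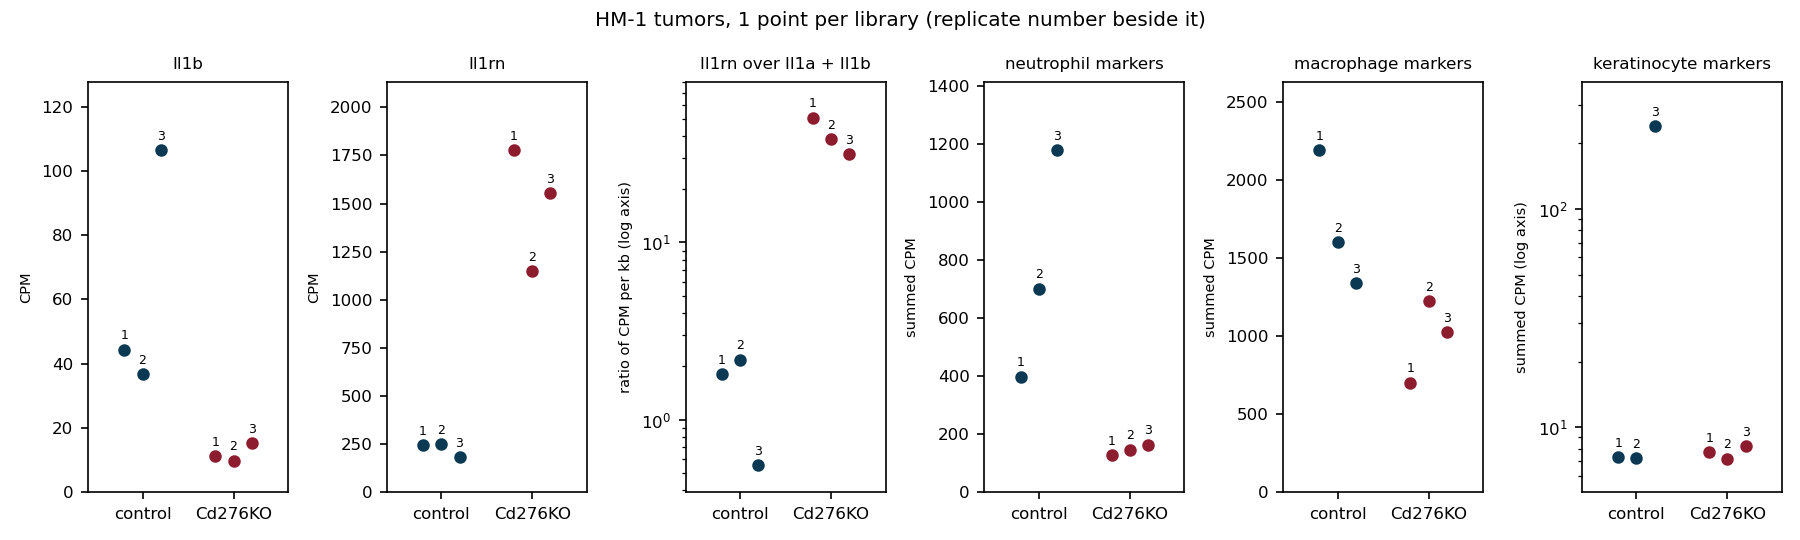
The 6 HM-1 tumor libraries (points, with replicate numbers) for Il1b and Il1rn in CPM, the ratio of Il1rn to Il1a plus Il1b per kilobase on a log axis, and the summed CPM of neutrophil, macrophage and keratinocyte markers, the last on a log axis. Control tumor 3 is highest for Il1b, neutrophil and keratinocyte markers. The 2 groups do not overlap for Il1b, Il1rn, the ratio, and the neutrophil and macrophage sums, though the macrophage sums overlap without Lyz2.

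Tumors held more of the ligands and less of the antagonist than cultures of the same cells. In controls 6 of 8 genes were called, 5 higher and 1 lower, beside 41.8% of all genes, 25.3% higher and 16.6% lower. Il1b, with no count in the control cultures, was at least 1336-fold higher in the control tumors, taking 3 counts over the 3 cultures as the floor. Il1a (log2 fold change 4.80), Il18 (4.54), Il33 (4.04) and Il1rl1 (3.58) were also higher, with adjusted p of 0.0011, 0.00265, 0.0102 and 0.00472 by edgeR. Il1rn fell by 2.61 on the log2 scale (SE 0.17, adjusted p = 0.000142), and Il1r1 and Il1rap were not called (0.57 and 0.80, adjusted p = 0.0891 and 0.0637). Without control tumor 3, Il1r1 was called too (0.72, adjusted p = 0.0232). Il1r1 was also called with voom, Il1rap with DESeq2, and Il1r1 and Il1rap in 1 fit over all 18 libraries. The Il33 call was lost without HM-1 control culture 1 (adjusted p = 0.0515) and with no filter on low counts (0.0699).

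In the Cd276KO group 6 of 7 genes were called between tumors and cultures, 5 higher and 1 lower, beside 75.7% of all genes, 41.2% higher and 34.5% lower. Il1rn was again lower in tumors (log2 fold change -1.19, SE 0.16, adjusted p = 0.000161). Higher were Il33 (2.44), Il1rl1 (1.85) and Il1r1 (0.76), with adjusted p of 0.0054, 0.000563 and 1.5e-05. Il1b and Il18 were called higher as well, from 1 and 2 counts in the cultures, with ratios of 710.5 (95% interval 127 to 28100) and 34.61 (9.22 to 292). The Il33 call was lost with no filter on low counts (adjusted p = 0.0617). Il1rap was not called (0.22, adjusted p = 0.17) unless Cd276KO tumor 1 was left out (0.33, adjusted p = 0.0268). Il1a was not tested here, at 59 counts in tumors and 5 in cultures. Tumors and cultures differ in the cells they hold as well as in growth, and the 2 cannot be told apart.

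Between the control cultures of the 2 cell lines, 5 of 6 genes were called, 1 higher in ID8 and 4 lower, beside 58.3% of all genes, 28.8% higher and 29.6% lower. ID8 cells had less Il1rn (log2 fold change -2.06, adjusted p = 3.55e-07 by edgeR), Il1r1 (-1.44, 0.000138), Il1rap (-0.83, 0.00847) and Il1rl1 (-1.20, 0.0258), and more Il18 (2.01, 0.00339). The Il1rl1 call was lost under DESeq2 (adjusted p = 0.0719), in 1 fit over all 18 libraries (0.114) and without HM-1 control library 2 or ID8 control library 2 or 3 (up to 0.126). Il33 was 1.505 ± 0.245 CPM in ID8 and 1.458 ± 0.368 CPM in HM-1 cells (SD, n = 3 each), which overlapped. The lines also differed in medium and strain label, which cannot be told apart from the line itself.

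Ordered by group mean, Il1rn was highest in HM-1 Cd276KO cultures, then in Cd276KO tumors and HM-1 control cultures, whose ranges overlapped, then in ID8 control cultures, control tumors and ID8 Cd276KO cultures, the last 2 overlapping. Il1a, Il1b and Il18 were highest in control tumors and next in Cd276KO tumors, without overlap between these. For Il18 the Cd276KO tumors overlapped ID8 control cultures. Il1rap was highest in control tumors and then in HM-1 control cultures, and its other 4 groups lay between 8.271 and 11.97 CPM, with neighbours overlapping.

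The genes whose log2(CPM + 0.5) values followed a member most closely over the 18 libraries were taken from 11955 protein-coding genes, as a description, since the libraries share groups and depth. For Il1b these were Csf3r, Ccl24 and Hk3, each at r = 0.999, of which Csf3r encodes the receptor for granulocyte colony-stimulating factor. For Il1a they were Car4 (0.99), Osm (0.982) and G0s2 (0.976). Il1rn was followed by the transcription factor genes Foxf2 (0.981) and Hnf4a (0.977) and by D1Ertd622e (0.958). Il1rap was followed by Ptk2b (0.958), Il1rl1 by Lepr (0.974), Il1r1 by Maml3, Abhd2 and Magi1 (0.99 each) and Il33 by Ecm2 (0.973).

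Among other receptors and decoys of the family, 3 of 4 tested were called lower and none higher in HM-1 cultures, beside 16.1% of all genes called lower. In ID8 cultures 3 of 3 were lower, beside 31.3%, and in tumors 2 of 5, beside 3.18%. The list's median log2 fold changes were -1.02, -1.76 and -1.63, and so few genes describe only themselves. Il1r2, a decoy that takes up IL-1 without signalling, was 1.38 ± 0.252 CPM in HM-1 control cultures and 0.4322 ± 0.112 in the Cd276KO cultures (log2 fold change -1.60, adjusted p = 0.00709 by edgeR, n = 3 each). In tumors Il1r2 was 20.84 ± 8.08 CPM in controls and 3.006 ± 0.586 in the Cd276KO group (-2.77, adjusted p = 0.0226). Il18r1, the ligand-binding chain for IL-18, fell in HM-1 cultures from 2.398 ± 0.132 to 0.09792 ± 0.0806 CPM (-4.46, adjusted p = 0.000297). Il18rap, its accessory chain, fell in tumors from 40.67 ± 7.19 to 12.81 ± 3.46 CPM (-1.63, adjusted p = 0.0253). In ID8 cultures the IL-36 receptor gene Il1rl2 fell from 14.91 ± 1.8 to 0.7513 ± 0.061 CPM (-4.23, adjusted p = 3.03e-16) and Il1rapl1 from 0.6409 ± 0.166 to 0.1764 ± 0.0485 CPM (-1.76, adjusted p = 0.00111). The list of other ligands and the IL-18 binding protein had no call, with 1, 1 and 2 genes tested.

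Of 17 signalling genes, 3 rose and 5 fell in HM-1 cultures (17 tested), 5 rose and 8 fell in ID8 cultures (16 tested), and 3 of 17 fell in tumors. Over all genes the shares called were 27.7%, 60.7% and 5.38%, and the list's median log2 fold changes were 0.21, -0.08 and -0.01. Myd88, the adaptor shared by these receptors, fell in HM-1 cultures from 51.34 ± 1.84 to 29.0 ± 1.15 CPM (log2 fold change -0.78, adjusted p = 0.000511) and in tumors from 50.57 ± 6.03 to 30.47 ± 2.21 CPM (-0.70, adjusted p = 0.0412). Irak4, the kinase that joins it, fell in tumors from 25.64 ± 2.79 to 14.6 ± 0.772 CPM (-0.78, adjusted p = 0.0371). Irak3, which encodes a restraint on this pathway, fell in HM-1 cultures from 3.115 ± 0.963 to 0.1029 ± 0.103 CPM (-4.85, adjusted p = 0.00132) and rose in ID8 cultures from 0.3444 ± 0.055 to 1.029 ± 0.176 CPM (1.65, adjusted p = 0.000128). Tab3 fell in ID8 cultures (-1.19, adjusted p = 2.26e-11).

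Among inflammasome and processing genes 1 rose and 5 fell of 10 tested in HM-1 cultures, 2 rose and 5 fell of 8 in ID8 cultures, and 1 fell of 14 in tumors. The share of all genes called lower was 16.1%, 31.3% and 3.18%, and the share called higher 11.6%, 29.4% and 2.2%. The list's median log2 fold changes were -0.40, -0.33 and -0.58. Casp1, the enzyme that cuts pro-IL-1 beta and pro-IL-18, fell in HM-1 cultures from 25.12 ± 4.84 to 10.57 ± 0.786 CPM (log2 fold change -1.21, adjusted p = 0.00235), and Casp4 from 2.734 ± 0.33 to 0.1457 ± 0.163 CPM (-4.09, adjusted p = 0.00127). The sensor gene Aim2 fell in ID8 cultures from 2.352 ± 0.351 to 0.01187 ± 0.0206 CPM (-7.03, adjusted p = 6.01e-11), and the pore-forming gasdermin gene Gsdmd from 140 ± 6.1 to 83.74 ± 1.41 CPM (-0.67, adjusted p = 8.24e-10). The gene that fell in tumors was the sensor Nlrp3, from 9.533 ± 0.924 to 2.559 ± 0.0805 CPM (-1.86, adjusted p = 0.0206). HM-1 control cultures had 0.1695 ± 0.0751 CPM of Nlrp3.

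Of known targets of IL-1 signalling, 3 rose and 9 fell of 15 tested in HM-1 cultures, where 11.6% of all genes were higher and 16.1% lower. In ID8 cultures 3 rose and 13 fell of 17, beside 29.4% and 31.3%, and in tumors 3 of 21 fell, beside 3.18%. The list itself was not tested. Ccl2, a monocyte chemokine, fell in HM-1 cultures from 15.77 ± 2.66 to 0.1001 ± 0.103 CPM (log2 fold change -7.17, adjusted p = 7.75e-05) and in tumors from 66.02 ± 64.4 to 5.762 ± 1.27 CPM (-3.52, adjusted p = 0.0476). The collagenase gene Mmp13 fell in HM-1 cultures from 263.7 ± 4.53 to 26.62 ± 2.23 CPM (-3.27, adjusted p = 7.15e-06). Ccl7 fell in tumors from 23.06 ± 10.7 to 5.989 ± 1.01 CPM (-1.92, adjusted p = 0.0441). The neutrophil chemokine gene Cxcl5 fell in ID8 cultures from 21.6 ± 2.94 to 0.1396 ± 0.0114 CPM (-7.15, adjusted p = 2.32e-18), and Saa3 was called lower there, with no count in the Cd276KO libraries. The list's median log2 fold changes were -0.49, -1.09 and -0.70 in HM-1 cultures, ID8 cultures and tumors, beside -0.01, -0.01 and -0.03 over all genes. Without control tumor 3, 2 target genes were called higher and 7 lower in tumors, the inflammasome list had 1 higher and 3 lower, and 1 of the 2 other ligands tested was lower. The 3 signalling calls in tumors were lost without control tumor 1 or 2, which left 0 and 1 of the target calls. No gene of these 5 lists was called in tumors when any Cd276KO tumor was left out.

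**Figure D4:**
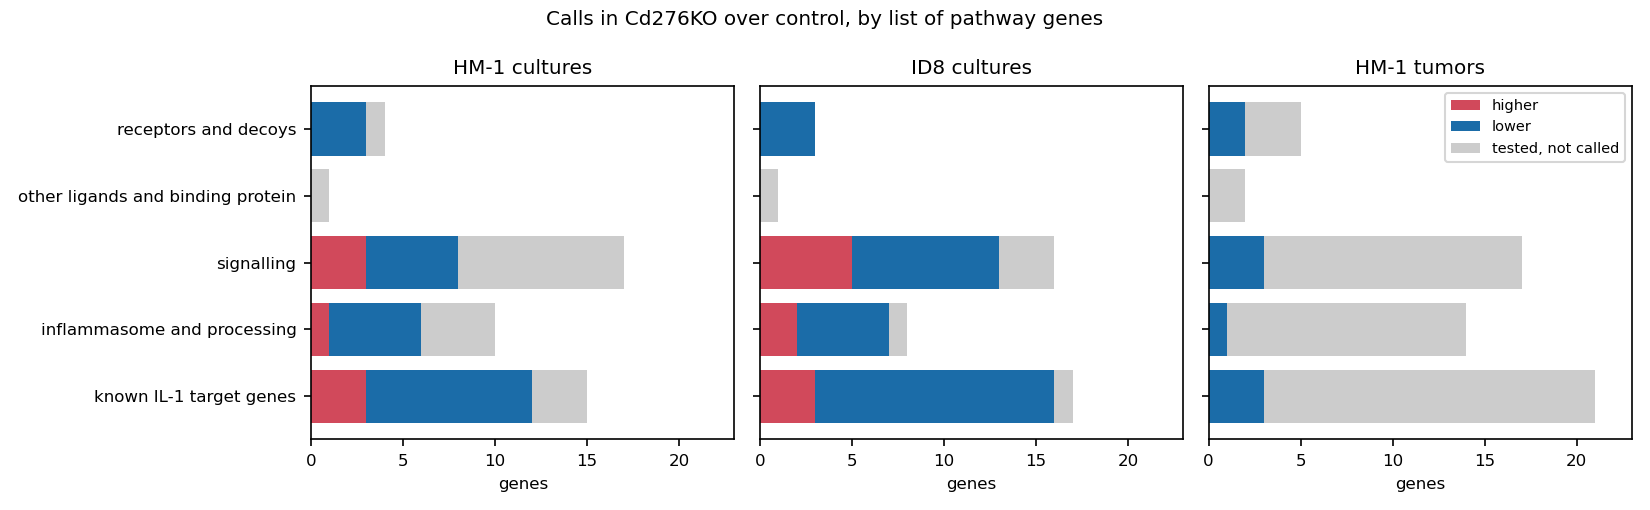
Number of genes in each pathway list that were called higher, called lower, or tested and not called in Cd276KO over control, in HM-1 cultures, ID8 cultures and HM-1 tumors. In tumors no gene of these lists was called higher.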

How the data were processed

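The authors deposited raw read counts per gene, whole numbers that are not normalized, in 1 table for all 18 libraries. Per the labels' protocols, the RNeasy Mini Kit served for RNA extraction. Trim Galore, STAR, HTSeq and the build GRCm38 (mm10) are named per the submitters' processing notes. Tool versions, annotation release and strandedness were not given in the sources used here. Identifiers were matched to GENCODE M21 (53861 with their version, 54723 of 54752 in all), and 20189 genes had no count.

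Counts were tested with edgeR 4.0.16 in R 4.3.3 (robust quasi-likelihood fits of the 6 libraries compared, or 12 for an interaction, TMM scaling, filterByExpr), with Benjamini-Hochberg adjustment over all genes tested. The SE is the log2 fold change divided by the square root of F. Fits were tested on simulated data. CPM use library totals, and per-kilobase levels the union of exons. Intervals of ratios are exact 95% intervals (Clopper-Pearson) for counts and cover counting error only. Groups came from the sample titles. No comparison had correlations above 0.1 between the deviations of same-numbered libraries for all 3 numbers, so no pairing was used. In ID8 cultures these correlations were 0.23, 0.06 and 0.22. There each Cd276KO library correlated best with the control of its own number.

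The genes, lists and tests were chosen with earlier results of these data known. Named were the 8 genes and Cd276, the 2 called genes with the largest change per list and Cd276KO comparison, and for each of the 8 genes the 3 most correlated protein-coding genes (mean of at least 1 CPM, no Gm or Rik names). For Il1rap, Il1rl1 and Il33 only the first of the 3 is given, and those for Il18 are not reported here. Marker genes were named singly after their values were seen. Alternatives were DESeq2 1.42.0, relative log expression (RLE) scaling, no filter, 1 fit over 18 libraries, a replicate block, limma 3.58.1 voom with quality weights (Cd276KO against control in HM-1 cultures and tumors, and tumors against cultures in controls), and leaving out each library. Protein sequences were not used here.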

Additional observations from a re-analysis of the deposited data

Results flagged for a closer look

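Of the differences between Cd276KO effects in the 8 genes, 3 were singled out. In these the gene could be tested in both settings and the difference itself passed edgeR's interaction test with Benjamini-Hochberg adjustment over all genes. Of all genes tested, 2.84% passed for tumors minus cultures and 40.4% for ID8 minus HM-1 cultures. The Il1rn effect was larger in HM-1 tumors than in HM-1 cultures by 1.39 on the log2 scale (adjusted p = 0.00954), from group means of 226.4 and 1494 CPM in tumors and 1246 and 3126 CPM in cultures. It was higher in all 3 Cd276KO libraries than in all 3 controls in both settings, and the difference stayed between 1.24 and 1.55 when any 1 of the 12 libraries was left out (adjusted p 0.00346 to 0.0382). Between the cell lines, the Il1rn effect in ID8 minus that in HM-1 cultures was -1.89 (adjusted p = 7.24e-09), higher in all 3 Cd276KO libraries of HM-1 and lower in all 3 of ID8. For Il1rap the same difference was 1.00 (adjusted p = 0.00533), both lines being lower in Cd276KO and HM-1 more so. The fall of Il1rap in ID8 was small (log2 fold change -0.27), and its call was lost in several settings. Cd276 was not called lower in the ID8 libraries labelled Cd276KO, so the comparison between lines rests on that label.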

How the results depend on the processing

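Of 53 results for the 8 genes, 31 of them called, the settings other than leaving out a library left 260 values on the same side of the threshold and in the same direction, moved 12 past it and 12 short of it, and turned 2. The 2 that turned were Il33 between ID8 and HM-1 control cultures, near 0 throughout, at 0.0 with DESeq2 and 0.02 with no filter (-0.14 to 0.19 with a library left out). Leaving out a library left 366 values alike, moved 3 past the threshold and 18 short of it, and turned 15. All values that turned were uncalled: ID8 cultures Il1r1 (-0.04 to 0.01), tumors Il1rl1 (-0.22 to 0.95) and Il33 (-1.49 to 0.61), tumors minus cultures Il1r1 (-0.01 to 0.39), Il18 (-0.24 to 0.87) and Il33 (-2.17 to 0.04), and ID8 minus HM-1 Il33 (-0.06 to 0.33). The genes called in HM-1 cultures, 3452, became 7577 with voom and 1725 to 7491 with a library left out, the highest without control library 1, and the 3 member calls were kept each time. In ID8 cultures 7849 became 4260 in 1 fit over 18 libraries, where 2 members were called instead of 4. In tumors 826 became 2465 with DESeq2, 4001 in 1 fit over 18 libraries, 3194 with voom and 0 to 1685 with a library left out (2410 to 4789 at an unadjusted p under 0.05). Tumor member calls, 3, became 5 with each of DESeq2, the fit over 18 libraries and voom, and 0 to 4 with a library left out. For tumors against cultures in controls, 6107 became 9974 in 1 fit over 18 libraries and 9509 with voom. The tumors minus cultures difference, 443, became 953 with DESeq2, 848 in 1 fit over 18 libraries and 225 to 913 with a library left out. Leaving out a library also leaves fewer libraries, and the cause of these shifts was not tested. Low counts limit Il1a, Il1b, Il18 and Il1rl1 in cultures, where Il18 in ID8 Cd276KO libraries, for example, rests on 8 counts.

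The replicate block took the tumor calls of edgeR from 826 to 0 (2726 genes at an unadjusted p under 0.05) and the member calls there from 3 to 0 (5 at an unadjusted p under 0.05). Under the block the adjusted p was 0.0794 for Il1rn, 0.088 for Il1b and 0.0927 for Il1rap in tumors, and 0.0711 for Il1rl1 between ID8 and HM-1 cultures, and no other member call was lost. Same-numbered libraries share only a number in their titles. The correlations of their deviations were -0.66, 0.0 and -0.1 in tumors and 0.23, 0.06 and 0.22 in ID8 cultures. In ID8 cultures each Cd276KO library did correlate best with the control of its own number.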
